A study of Mus musculus with 6 samples.

Results

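The 9 genes studied here, which mark monocytes and macrophages or act on them, were followed through caerulein-induced acute pancreatitis (AP) in whole mouse pancreas. They are the receptor gene Csf1r, its ligand genes Csf1 and Il34, the macrophage genes Adgre1, Lyz2, Cd68 and Mpeg1, and the monocyte genes Ly6c2 and Plac8. They were chosen by name and matched by Ensembl identifier, which gave 9 of the 22556 genes listed, and all 9 passed the filter used for testing, a mean of at least 1 TPM. Total pancreas RNA of 6 mice was sequenced, and the 3 groups held 2 mice each. All mice were wild type, of the C57BL/6 strain, 8 weeks of age by the labels and male by the study's methods. Saline mice received saline and no caerulein. AP mice received hourly injections of caerulein (cerulein in the labels), a peptide that stimulates the cholecystokinin receptor of acinar cells. PolyI:C-pretreated AP (polyI:C AP) mice received polyI:C, a synthetic double-stranded RNA that Toll-like receptor 3 senses, before the same caerulein injections. The methods place sampling on the day after the first injection and do not say which pretreatment interval the sequenced mice had. None of the groups analysed here received polyI:C without caerulein, so a difference of the polyI:C AP mice from saline mice belongs to both agents together.

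Monocytes are made in bone marrow and enter inflamed tissue from the blood, where they can become macrophages, while resident macrophages are already in the tissue before injury. Csf1r is a receptor tyrosine kinase on mononuclear phagocytes, and its ligands CSF1 and IL-34, made largely by stromal, endothelial and epithelial cells, keep these cells alive and drive their differentiation. Ly6c2 is high on classical blood monocytes and falls as they mature, whereas Adgre1, which encodes the surface protein F4/80, is acquired with macrophage maturation. The pancreas is mostly acinar tissue, and macrophages and recruited monocytes take part in its inflammation.

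The stretches in front of 3 member genes are shown, each for a reason. Cd68 had the largest rise in AP mice, and Lyz2 had the largest fall with polyI:C. Of the 6 members that could be searched, only Ly6c2 had a window with the PU.1 letters. Each is the 250 bases before a RefSeq transcription start in GRCm38.p6, on the gene's own strand, with motif matches in capitals.
Cd68, chr11:69666171-69666420, minus strand: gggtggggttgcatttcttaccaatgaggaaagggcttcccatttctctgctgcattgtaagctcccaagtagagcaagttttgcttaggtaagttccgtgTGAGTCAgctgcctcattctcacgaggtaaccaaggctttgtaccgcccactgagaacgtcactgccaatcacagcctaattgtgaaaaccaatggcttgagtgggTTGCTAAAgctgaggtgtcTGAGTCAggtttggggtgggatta
Ly6c2, chr15:75111938-75112187, minus strand: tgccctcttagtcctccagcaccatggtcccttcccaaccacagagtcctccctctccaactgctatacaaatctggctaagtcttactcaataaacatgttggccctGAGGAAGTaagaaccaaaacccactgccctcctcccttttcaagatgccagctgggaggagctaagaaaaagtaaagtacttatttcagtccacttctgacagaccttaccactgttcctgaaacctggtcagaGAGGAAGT
Lyz2, chr10:117282273-117282522, minus strand: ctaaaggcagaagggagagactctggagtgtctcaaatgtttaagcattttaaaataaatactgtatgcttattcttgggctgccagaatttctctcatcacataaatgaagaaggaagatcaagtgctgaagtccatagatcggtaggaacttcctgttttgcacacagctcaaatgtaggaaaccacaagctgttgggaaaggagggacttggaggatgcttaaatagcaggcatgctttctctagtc

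Promoters of 6 of the 9 genes were matched in the RefSeq set, with 8 starts in all. Csf1r, Il34 and Adgre1 had no entry there, so their promoters were not searched. Both strands of the windows were searched for 4 sets of letters. PU.1 is a transcription factor of myeloid cells, and GAGGAAGT, a form of its site, was found in 2.44% of all 32851 promoters and, among the members, in front of Ly6c2. The printed Ly6c2 window held it 142 and 8 bases upstream of the start. The window of its other start overlaps this one and held the first of these same matches, 108 bases upstream of that start. TGANTCA, the AP-1 site, was present in 6.75% of promoters and in that of Cd68, 149 and 24 bases upstream. TTGCNNAA, a C/EBP site, was present in 9.56% of promoters, in that of Cd68 43 bases upstream and in that of the second Plac8 start 12 bases upstream. The letters of the interferon-stimulated response element were present in 2.98% of promoters and in none of the member windows. Csf1, Lyz2, Mpeg1 and the first Plac8 start held no match to any of the 4. These matches are letters in a window, and binding was not measured.

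Expression was measured in TPM, a unit of transcript abundance that corrects reads for the length of the gene and gives every library one total, so that levels of different genes can be compared. TPM does not state depth. From the spacing of low values, between 3296843 and 10826383 reads per library were estimated, with both saline libraries the shallowest, and 1 read of a gene of median length was worth 0.0958 to 0.2655 TPM. Between 50.7% and 62.2% of the low values lay within 0.1 of a whole number of reads, against 18.1% to 19.5% with gene lengths shuffled. Differences were taken between values of log2(TPM + 0.5), and this scale makes the fold of genes with few transcripts too small. A gene passed the threshold with an adjusted p of at most 0.05 in limma, over the 16814 genes tested, and a difference of at least 2-fold. The labels do not say how the 2 mice of a group were housed or handled, so p-values measure the spread between these libraries only, and an exact permutation test of 2 against 2 libraries cannot give a two-sided p below 0.333. Over all genes tested, log2 fold changes between AP and saline mice had a median of 0.45, which scaling by the median of ratios brought to 0.049. For polyI:C AP and saline mice these medians were 0.485 and 0.054, and for the polyI:C AP and AP groups they were 0.039 and 0.015. RNA of a bulk tissue was measured, so fewer cells of a type and less RNA per cell cannot be told apart in any of the values that follow.

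In AP mice, 6 of the 9 genes rose past the threshold and none fell, where 18.2% of all tested genes rose and 4.03% fell. The genes that rose were Csf1, Plac8, Lyz2, Cd68, Adgre1 and Mpeg1. At an unadjusted p the counts were 8 and 0, and the shares over all tested genes, taken at the adjusted p, do not apply to them. With polyI:C pretreatment, Csf1r and Lyz2 fell against AP mice and none of the 9 rose (0 also at an unadjusted p), where 0.404% of all tested genes fell and 0.44% rose. In polyI:C AP against saline mice, 4 genes (Csf1, Plac8, Cd68 and Mpeg1) were raised and 2 (Csf1r and Lyz2) were lowered, where the shares over all tested genes were 16.9% and 2.97%. The median log2 fold changes of the 9 genes were 2.15, -0.92 and 1.15 in the 3 comparisons. All 9 genes were higher in both AP than in both saline libraries, which held for 52.6% of the genes tested. Lower values in both polyI:C AP than in both AP libraries were found for 7 of 9, where 22.1% of tested genes met this, and the same 7 genes met both conditions, as did 16.6% of tested genes. The exceptions were Il34 and Plac8. The comparisons with polyI:C share the AP or the saline libraries with the first, so their values are not independent.

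**Figure D1:**
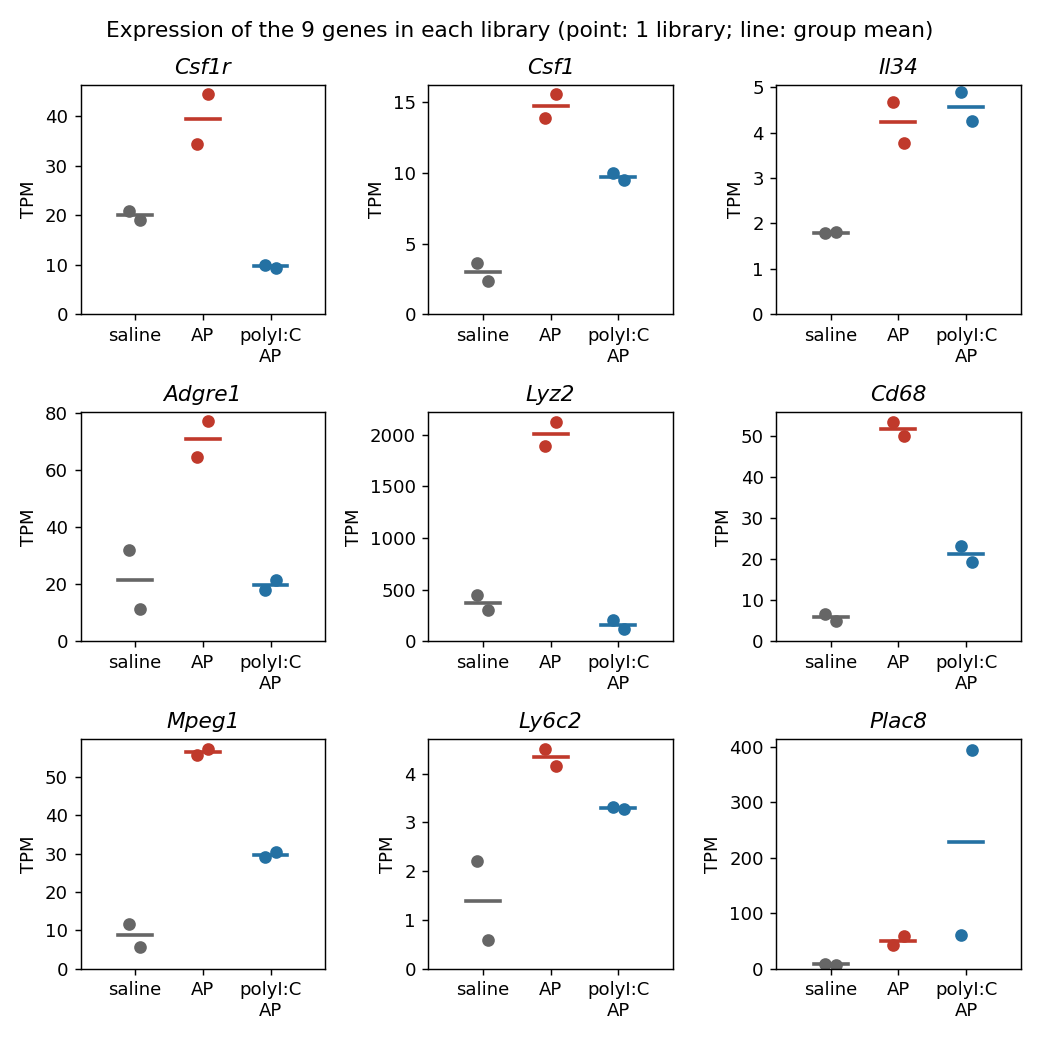
TPM of each of the 9 genes (vertical axes, each on its own linear scale from 0) in the 2 libraries of each group, with a point for each library and a line at the group mean. AP points lie above saline points in all 9 panels, and polyI:C AP points lie below saline points for Csf1r and Lyz2 only.

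The receptor gene Csf1r (ENSMUSG00000024621, chromosome 18 of GRCm38, 61100598 to 61132149, plus strand) had 20.9 and 19.0 TPM in the saline libraries, 34.3 and 44.5 TPM in the AP libraries, and 10.02 and 9.26 TPM in the polyI:C AP libraries. The groups did not overlap, and the polyI:C AP mice were the lowest of the 3. Its log2 fold change with polyI:C was -1.97 against AP mice (SE 0.16, adjusted p = 0.0052), which is 3.91-fold lower, and its fall against saline mice was -1.01 (adjusted p = 0.0030). After median-of-ratios scaling these were -1.98 and -1.45. In AP against saline mice the log2 fold change was 0.96 (95% interval 0.58 to 1.33, adjusted p = 0.0034), short of the 2-fold limit, and 0.53 after median-of-ratios scaling. Leaving out a library of either compared group ended the call against AP mice, with -2.15 (adjusted p = 0.27) without AP replicate 1, -1.78 (0.21) without AP replicate 2, -2.02 (0.094) without polyI:C AP replicate 1 and -1.91 (0.21) without polyI:C AP replicate 2. Against saline mice the fold dropped below 2 without saline replicate 1 (-0.94) and without polyI:C AP replicate 2 (-0.96), and in AP against saline mice it exceeded 2 without saline replicate 1 (1.02) or AP replicate 1 (1.14). The 3′ part of Csf1r overlaps Hmgxb3 on the opposite strand over 873 bases, and Hmgxb3 was listed at 27.7 to 53.9 TPM. The strand setting of the counting is not given in the sources used here.

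Csf1 (ENSMUSG00000014599, chromosome 3, 107741048 to 107760469, minus strand), the main growth factor of the macrophage lineage, was at 3.63 and 2.33 TPM in saline, 13.9 and 15.6 TPM in AP and 9.98 and 9.47 TPM in polyI:C AP mice. Values were lowest in saline, highest in AP and intermediate with polyI:C, without overlap. Csf1 rose by 2.15 on the log2 scale in AP mice (SE 0.22, adjusted p = 0.00060) and stayed 1.58 above saline with polyI:C (adjusted p = 0.0021). The difference between the polyI:C AP and AP mice was -0.57 (95% interval -1.11 to -0.04, adjusted p = 0.33) and missed the threshold. The other ligand gene, Il34 (ENSMUSG00000031750, chromosome 8, 110741829 to 110805924, minus strand), had 1.79 and 1.80 TPM in saline, 4.67 and 3.78 TPM in AP and 4.89 and 4.25 TPM in polyI:C AP mice. Saline libraries were the lowest, and the other groups overlapped. Its log2 fold changes of 1.04 in AP mice (adjusted p = 0.076) and 1.14 with polyI:C (adjusted p = 0.057) against saline mice did not pass, and between the caerulein groups it differed by 0.11 (95% interval -0.83 to 1.04, adjusted p = 0.94). About 5.10 and 4.19 reads lay behind the saline values of Il34, against 19.5 to 27.4 in the other libraries. Il34 overlaps the antisense genes Gm15894 and Gm15895, which were not analysed here.

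Csf1r and its ligand gene Csf1 therefore had different orders of groups, and this was also visible within each library. The ratio of Csf1 to Csf1r was 0.174 and 0.123 in saline, 0.404 and 0.350 in AP and 0.996 and 1.02 in polyI:C AP libraries, with no overlap between groups. For Csf1 to Il34 the ratios were 2.03 and 1.29 in saline, 2.97 and 4.12 in AP and 2.04 and 2.23 in polyI:C AP libraries. This second ratio was highest in the AP libraries, and the polyI:C AP libraries lay just above the higher saline library. A ratio of 2 genes in 1 library does not depend on how that library was scaled.

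**Figure D2:**
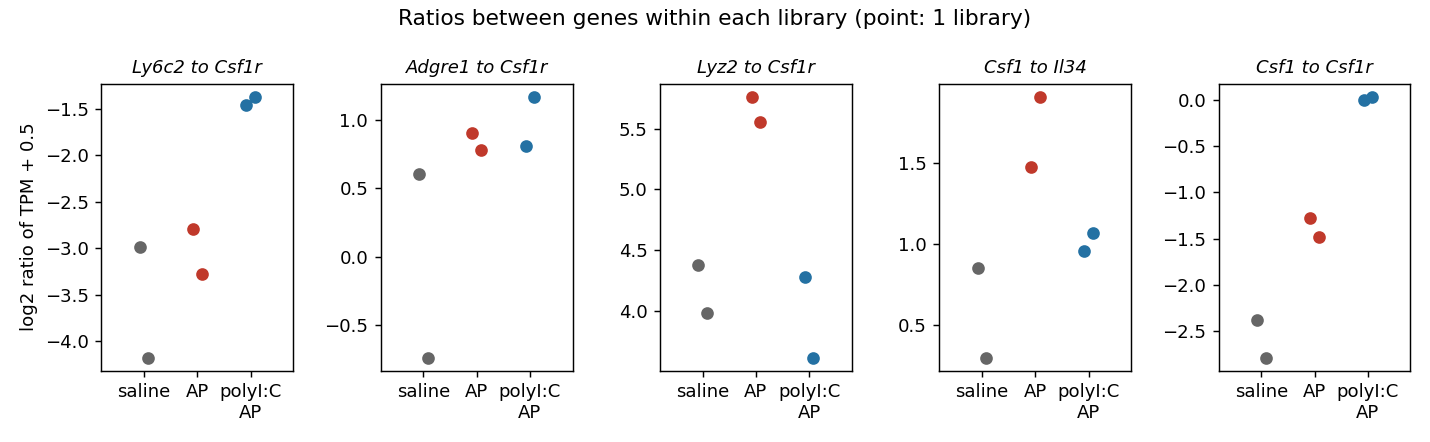
Log2 ratios of TPM + 0.5 between pairs of the 9 genes within each library (vertical axes, each with its own range), with a point for each library. Csf1 to Csf1r steps up from saline to AP to polyI:C AP, and Ly6c2 to Csf1r is highest in both polyI:C AP libraries, at -1.46 and -1.37.

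Among the macrophage genes, Lyz2 (ENSMUSG00000069516, chromosome 10, 117277331 to 117282321, minus strand), which encodes the lysozyme of myeloid cells, was the most abundant member in saline and in AP mice, at 444 and 307 TPM and at 1891 and 2118 TPM. With polyI:C it was at 203 and 119 TPM, below both saline libraries. Its fold change against saline mice was -1.24 (SE 0.27, adjusted p = 0.012), or -1.70 after median-of-ratios scaling. This call was lost without saline replicate 1 (-0.98, adjusted p = 0.074), AP replicate 1 (-1.24, 0.062), AP replicate 2 (-1.24, 0.054) and polyI:C AP replicate 2 (-0.86, 0.068). Against AP mice the fall of Lyz2 was -3.68 (adjusted p = 0.0044), and it passed neither without AP replicate 1 (-3.76, adjusted p = 0.29), nor AP replicate 2 (-3.60, 0.24), nor polyI:C AP replicate 2 (-3.30, 0.19). Lyz2 shares 24 of its 1217 stretches of 100 bases with Lyz1, a lysozyme gene of close sequence. Lyz1 had 22.8 and 8.66 TPM in saline, 13.7 and 23.4 TPM in AP and 8.15 and 112 TPM in polyI:C AP libraries, and it passed in none of the 3 comparisons, with adjusted p-values of 0.85, 0.83 and 0.48. In polyI:C AP replicate 2 it was thus close to Lyz2 in level. The ratio of Lyz2 to Csf1r was 21.2 and 16.2 in saline, 55.1 and 47.6 in AP and 20.3 and 12.9 in polyI:C AP libraries. Thus Lyz2 exceeded Csf1r by more in both AP libraries than in the other 4, and the saline and polyI:C ratios overlapped.

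Adgre1 (ENSMUSG00000004730, chromosome 17, 57358691 to 57483527, plus strand) had unequal saline libraries, with 32.1 and 11.2 TPM. It reached 64.6 and 76.9 TPM in AP mice, and the polyI:C AP values of 18.0 and 21.4 TPM lay between the 2 saline values. Its log2 fold change in AP against saline mice was 1.86 (SE 0.43, adjusted p = 0.014). The size was 2.60 without saline replicate 1 and 1.12 without saline replicate 2, both past the threshold, while the call was lost without AP replicate 1 (1.99, adjusted p = 0.11), AP replicate 2 (1.74, 0.13) and polyI:C AP replicate 1 (1.86, 0.075). With polyI:C against AP mice it was -1.82 (95% interval -2.85 to -0.79, adjusted p = 0.12), which missed the threshold, and passed it without saline replicate 1 (adjusted p = 0.024) or saline replicate 2 (0.030). Against saline mice it was 0.04 (95% interval -0.99 to 1.08, adjusted p = 0.95), or -0.40 after median-of-ratios scaling, 0.78 without saline replicate 1 and -0.69 without saline replicate 2. Adgre1 to Csf1r was 1.53 and 0.591 in saline, 1.88 and 1.73 in AP and 1.79 and 2.31 in polyI:C AP libraries, so the caerulein groups overlapped.

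Cd68 (ENSMUSG00000018774, chromosome 11, 69664213 to 69666153, minus strand), a glycoprotein of macrophage lysosomes, was at 6.63 and 5.09 TPM in saline, 53.4 and 50.0 TPM in AP and 23.2 and 19.3 TPM in polyI:C AP mice. Groups stood apart, with the polyI:C AP mice between the others. Its rise in AP mice was the largest of the 9 genes, at 3.05 on the log2 scale (SE 0.22, adjusted p = 0.00018), or 8.26-fold, and it was 1.78 above saline with polyI:C (adjusted p = 0.0013). The difference of -1.27 between the caerulein groups (95% interval -1.80 to -0.73) had an adjusted p of 0.060. It passed with a pseudocount of 1 (0.049), with genes of at least 5 TPM only (0.046) and when only the 4 libraries compared were fitted (0.033). Mpeg1 (ENSMUSG00000046805, chromosome 19, 12460779 to 12465283, plus strand), which encodes the pore-forming protein perforin-2 of phagocytes, was at 11.7 and 5.63 TPM, 55.8 and 57.3 TPM, and 29.0 and 30.4 TPM in the 3 groups in the same order. It had the order of Cd68, with no overlap. Mpeg1 rose by 2.72 in AP mice (SE 0.29, adjusted p = 0.00068) and was 1.80 above saline with polyI:C (adjusted p = 0.0036), a call lost without polyI:C AP replicate 1 (1.84, adjusted p = 0.064). Its difference of -0.92 with polyI:C against AP mice (95% interval -1.62 to -0.22, adjusted p = 0.23) did not pass.

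The monocyte gene Ly6c2 (ENSMUSG00000022584, chromosome 15, 75108158 to 75111970, minus strand), whose product is the Ly6C antigen used to sort classical monocytes, was at 2.20 and 0.579 TPM in saline, 4.51 and 4.16 TPM in AP and 3.32 and 3.27 TPM in polyI:C AP mice. Saline values were the lowest and rested on about 8.77 and 1.89 reads. No comparison passed, with 1.50 in AP against saline mice (adjusted p = 0.054), -0.35 with polyI:C against AP mice (95% interval -1.56 to 0.86, adjusted p = 0.83) and 1.15 against saline mice (adjusted p = 0.12). Without saline replicate 1, the changes against saline mice were 2.16 (adjusted p = 0.011) and 1.81 (adjusted p = 0.019) and passed. Of the 100-base stretches of Ly6c2, 5.81% are shared with its neighbour in the Ly6 family, Ly6c1, which many endothelial cells express as well. Ly6c1 was at 22.5 and 16.1 TPM in saline, 33.1 and 27.8 TPM in AP and 54.5 and 52.7 TPM in polyI:C AP mice, and it was raised with polyI:C against saline mice (1.47, adjusted p = 0.0021). The 2 genes therefore had different orders of groups. Relative to Csf1r, Ly6c2 was at 0.105 and 0.0306 in saline, 0.131 and 0.0934 in AP and 0.332 and 0.353 in polyI:C AP libraries, and the last were above the other 4.

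Plac8 (ENSMUSG00000029322, chromosome 5, 100553725 to 100572245, minus strand), a small cysteine-rich protein of blood monocytes that some epithelia also make, stood apart from the other 8 genes. It was at 8.08 and 7.19 TPM in saline, 41.7 and 58.5 TPM in AP, and 60.7 and 394 TPM in polyI:C AP mice. The last value was far above all others and rested on about 2064 reads. Plac8 rose in AP mice by 2.62 (SE 0.76, adjusted p = 0.032). This call was lost without saline replicate 1 (2.70, adjusted p = 0.12), saline replicate 2 (2.54, 0.15), AP replicate 1 (2.86, 0.16) or AP replicate 2 (2.38, 0.21), and after median-of-ratios scaling (2.21, 0.070). Its rise against saline mice with polyI:C was 4.26 (adjusted p = 0.0052), and it was 2.91 without polyI:C AP replicate 2 and 5.60 without polyI:C AP replicate 1, both past the threshold. Against AP mice it was 1.64 higher with polyI:C (95% interval -0.18 to 3.45, adjusted p = 0.41), a value of 0.29 without polyI:C AP replicate 2 and 2.98 without polyI:C AP replicate 1.

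**Figure D3:**
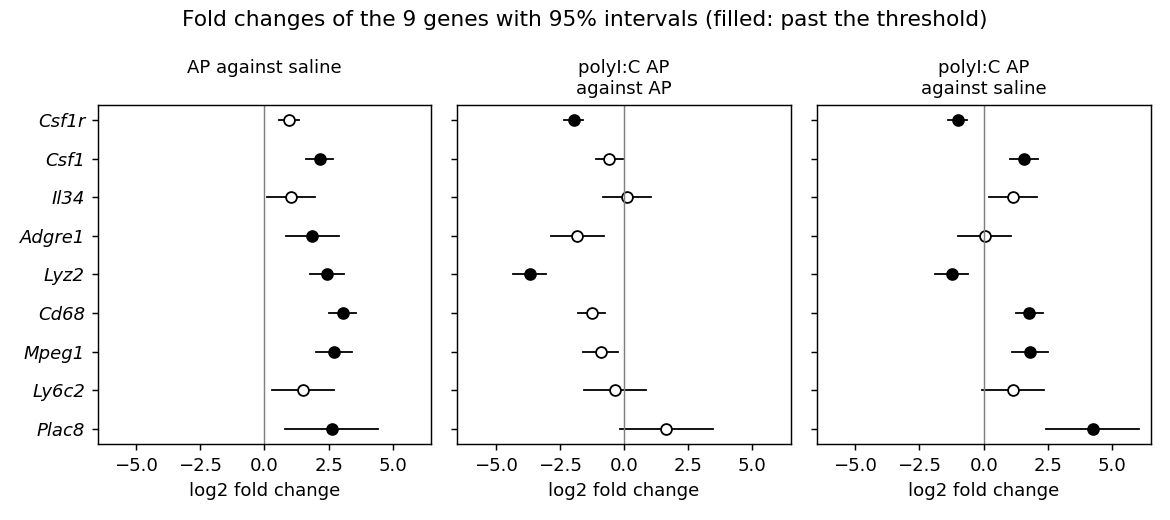
Log2 fold changes (horizontal axes, log2(TPM + 0.5) scale) of the 9 genes in the 3 comparisons, with 95% intervals from limma as bars and filled points for genes past the threshold. All 9 points lie above 0 in AP against saline mice, from 0.96 for Csf1r to 3.05 for Cd68, and Plac8 has the widest interval in each panel.

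By level, the order of the 9 genes within a group differed between groups. In saline mice Lyz2 was followed by Adgre1 and Csf1r, whose ranges overlapped, then by Mpeg1 and Plac8, which also overlapped, and by Cd68, Csf1, Il34 and Ly6c2, of which the last 2 overlapped. In AP mice, Lyz2, Adgre1 and Mpeg1 were followed by Cd68, Plac8 and Csf1r, where Plac8 overlapped each of its neighbours, and then by Csf1, Ly6c2 and Il34, the last 2 overlapping. In polyI:C AP mice, Plac8 and Lyz2 overlapped at the top, Mpeg1 came next, then Cd68 and Adgre1 (overlapping), Csf1 and Csf1r (overlapping), Il34 and Ly6c2. Csf1r thus had rank 3 in saline mice, rank 6 in AP mice and rank 7 with polyI:C. Cd68 was below Csf1r in both saline libraries and above it in the other 4.

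The genes with the most similar profiles were sought among those with a mean of at least 10 TPM, by the root mean square distance of centred log2 values over the 6 libraries. For Csf1r they were Cd74 (0.246), H2-Ab1 (0.261) and H2-Eb1 (0.264), which encode the invariant chain and MHC class II chains of antigen-presenting cells. Lyz2 was closest to F13a1 (0.267), Ccr2 (0.446) and Mrc1 (0.449), and Adgre1 to Wfdc17 (0.226), Itgb2 (0.233) and Cybb (0.245). Cd68 was closest to Pdpn (0.211), Tubb6 (0.239) and Rab31 (0.240). For Mpeg1 the nearest profiles were the collagen genes Col3a1 (0.0922) and Col6a3 (0.131), then Srpx (0.164). Csf1 was nearest to Fstl1 (0.0641), Serpinh1 (0.101) and Rhbdf2 (0.101), Il34 to Pld3 (0.0474), Ppp2r1a (0.0519) and Cul4b (0.0568), and Ly6c2 to Cpxm1 (0.052), Pxn (0.149) and Pop4 (0.150). For Plac8 the nearest were Gpx2 (0.459), Misp (0.520) and Car2 (0.569). Like Plac8, each was highest in polyI:C AP replicate 2, at 130, 59.5 and 44.7 TPM. In polyI:C AP replicate 1 they were at 47.9, 16.3 and 5.36 TPM. Distances are larger for genes that change more and are not comparable between members.

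In a list of other monocyte genes, 10 of the 19 tested rose in AP mice and 6 fell with polyI:C against AP mice. Over all genes tested, 18.2% rose and 0.404% fell in these comparisons. The medians of the list were 1.75 and -1.43, beside 0.45 and 0.039 over all genes. The 6 that fell were Ccr2, Chil3, F13a1, Itgam and Vcan, which had also risen in AP mice, and Cx3cr1, named here after its values were seen. F13a1, which encodes coagulation factor XIII A, was at 50.6 and 28.7 TPM in saline, 148 and 155 TPM in AP and 14.3 and 12.5 TPM with polyI:C. It resembled Csf1r and Lyz2 in lying below saline in both polyI:C AP libraries (-1.48, adjusted p = 0.0037). Cd14, the lipopolysaccharide co-receptor, had another pattern, with 15.7 and 13.9 TPM in saline, 218 and 222 TPM in AP and 216 and 209 TPM with polyI:C. Cd14 rose in AP mice (3.85, adjusted p = 1.3e-05) and differed by -0.05 between the caerulein groups (adjusted p = 0.89).

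Of 24 tissue macrophage genes, 11 rose in AP mice and 6 fell with polyI:C against AP mice, with medians of 1.54 and -1.15, where 18.2% and 0.404% of all tested genes did. Fcgr1, Mrc1, Sirpa and Trem2 did both, and the others that fell were Apoe and Cd163, named after their values were seen. Trem2, a lipid-sensing receptor of macrophages, went from 0.195 and 0.120 TPM to 5.21 and 5.91 TPM in AP mice and was at 0.326 and 0.865 TPM with polyI:C (3.20 with adjusted p = 0.00099, then -2.51 with adjusted p = 0.041). The complement genes C1qa and C1qb rose in AP mice by 1.71 and 1.91 (adjusted p = 0.0038 and 0.0037), and with polyI:C against AP mice they differed by -0.60 and -0.94 (adjusted p = 0.43 and 0.26). Lgmn, a lysosomal protease, rose by 3.61 (adjusted p = 0.00058), and was -0.79 with polyI:C against AP mice (adjusted p = 0.42). Gas6, a ligand of receptors for dying cells, was at 108 to 177 TPM in all 6 libraries and passed in no comparison.

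Genes that act with Csf1r were examined in the same way. Of 10 tested signalling partners, 7 rose and 1 fell in AP mice, where 18.2% and 4.03% of all tested genes did. With polyI:C against AP mice their median was -0.24, and limma called 0 of them, where 0.404% of all tested genes fell and 0.44% rose. At an unadjusted p, 4 were lower, as were 401 of all 16814 genes tested. The partner that fell was Pik3r1, a regulatory subunit of PI3-kinase, from 85.5 and 89.4 TPM to 32.9 and 34.0 TPM (-1.37, adjusted p = 0.00016). Stat3 rose by 1.11 (adjusted p = 0.00040) and differed by 0.12 with polyI:C (adjusted p = 0.67). After median-of-ratios scaling, the rise of Stat3 was 0.68, short of 2-fold. Sdc1, a cell surface proteoglycan, rose by 3.49 (adjusted p = 1.3e-05) and differed by -0.12 with polyI:C (adjusted p = 0.67). Tyrobp, the adaptor DAP12, was at 26.0 and 5.64 TPM in saline, 77.0 and 76.5 TPM in AP and 13.3 and 14.4 TPM in polyI:C AP libraries, and it rose in AP mice (adjusted p = 0.015) but did not pass with polyI:C against AP mice (adjusted p = 0.14).

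Among 10 myeloid transcription factors, 6 rose in AP mice, where 18.2% of all tested genes did, and 1 fell with polyI:C against AP mice, where 0.404% did. Cebpb (1.25, adjusted p = 0.0083), Bhlhe40 (2.74, adjusted p = 0.00020) and Irf5 (1.83, adjusted p = 0.0021) rose in AP mice, and Irf5 was the gene that fell with polyI:C (-1.99, adjusted p = 0.027). After median-of-ratios scaling, the rise of Cebpb was 0.82 (adjusted p = 0.055 by limma) and did not pass. Cebpa differed by 0.93 in AP against saline mice (adjusted p = 0.0021), short of 2-fold, and Klf4 by 0.04 (adjusted p = 0.95), or -0.37 after median-of-ratios scaling. Of 7 tested genes for other myeloid growth factors and receptors, Csf2ra, Csf2rb and Kitl rose in AP mice, where 18.2% of all tested genes did, Csf2rb being named after its values were seen. After median-of-ratios scaling, the rise of Csf2rb was 1.05 (adjusted p = 0.065 by limma) and did not pass. Kit and Il3ra differed by -0.32 (adjusted p = 0.069) and 0.69 (adjusted p = 0.11) in AP against saline mice. With polyI:C against AP mice, limma called 0 genes of this list, where 0.404% of all tested genes fell and 0.44% rose. At an unadjusted p, 3 were lower, as were 401 of all 16814 genes tested.

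**Figure D4:**
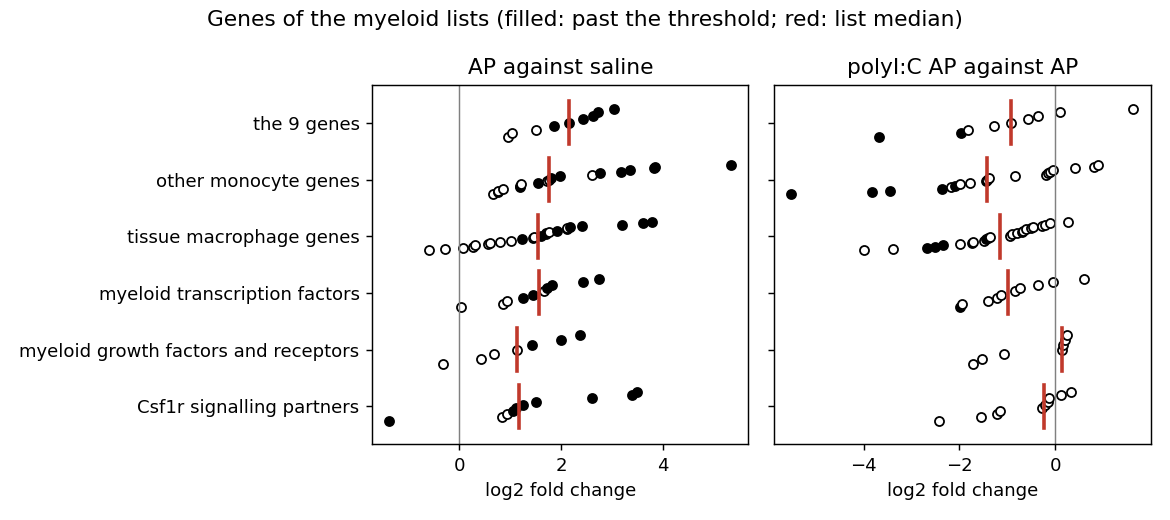
Log2 fold changes (horizontal axes, log2(TPM + 0.5) scale) of the 9 genes and of 5 lists of myeloid genes, with a point for each gene tested, filled past the threshold, and a red line at the list median. Medians lie between 1.14 and 2.15 in AP against saline mice, and between -1.43 and 0.14 in polyI:C AP against AP mice.

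Markers of other cells moved with the same groups, and their part in the results for the 9 genes was not tested. Over all genes tested, 18.2% rose and 4.03% fell in AP mice, and 0.44% rose and 0.404% fell with polyI:C against AP mice. At an unadjusted p, 401 of the 16814 genes were lower in this last comparison. The summed level of 7 duct epithelium markers was 2123 and 2522 TPM in saline, 31282 and 33268 TPM in AP and 29535 and 22633 TPM in polyI:C AP libraries. Most of each sum came from the keratin genes Krt8 and Krt18. In AP libraries Krt8 was at 15874 and 17678 TPM, and Krt18 at 13497 and 13595 TPM. Of the 7 markers, 6 rose in AP mice, and Sox9 did not pass (0.28, adjusted p = 0.54 by limma). Stellate and fibroblast markers had 4 of 8 genes raised in AP mice, and with polyI:C against AP mice limma called 0, or 1 lower at an unadjusted p. Of 14 acinar markers, 4 were analysed here, with a sum of 1286 and 1215 TPM in saline, 379 and 354 TPM in AP and 942 and 1055 TPM with polyI:C. The acinar genes Rbpjl, Bhlha15 and Cckar fell in AP mice and rose with polyI:C against AP mice, and Ptf1a passed in neither. The 11 neutrophil markers analysed summed to 18.2 and 5.80 TPM in saline, 73.0 and 66.3 TPM in AP and 45.4 and 23.2 TPM with polyI:C, with 1 to 7 of them at 0 in a library. Of the 7 neutrophil markers tested, 3 rose in AP mice and 0 passed with polyI:C against AP mice, or 2 lower at an unadjusted p, and of 5 dendritic cell markers these counts were 1 and 0, or 1 lower. Interferon response genes, which polyI:C is known to induce, were raised in 10 of 16 cases with polyI:C against AP mice, where 0.44% of all tested genes were. None of the 7 endothelial and none of the 5 lymphocyte markers tested passed in any of the 3 comparisons by limma, at an adjusted or an unadjusted p.

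Single libraries also differed in other cells. B cell genes summed to 42.0 TPM in AP replicate 2, against 2.19 to 13.7 TPM in the others, and Marco, a scavenger receptor of some macrophages, was at 123 TPM there against 0 to 35.4 TPM. Marco was named here after its values were seen. Without AP replicate 2, Adgre1 and Plac8 lost their calls in AP against saline mice. This was not particular to that library, since both calls were also lost without AP replicate 1. Leaving out polyI:C AP replicate 1 likewise ended the call of Adgre1, and leaving out either saline library ended that of Plac8. Saline replicate 1 exceeded saline replicate 2 in every member but Il34, in proportion most in Adgre1, Mpeg1 and Ly6c2. Its sums were also higher for neutrophil markers (18.2 against 5.80 TPM) and tissue macrophage genes (622 against 419 TPM). The same held for endothelial markers (99.7 against 68.3 TPM) and stellate and fibroblast markers (889 against 636 TPM). Sums of duct epithelium and lymphocyte markers were higher in saline replicate 2. The part of these differences in the comparisons was not tested.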

How the data were processed

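Total pancreas RNA of 6 mice was analysed, with 2 libraries in each of 3 groups named by the sample labels. The authors deposited TPM values per gene. Per the study's methods, reads had been trimmed with Trimmomatic, mapped to mm10 with STAR and counted with htseq-count, while the step to TPM is not given in the sources used here. The study tested read counts with a count model. The tables hold TPM, so limma (version 3.58.1, R 4.3.3) was used on log2(TPM + 0.5), for the 16814 genes whose mean reached 1 TPM. The model had 1 coefficient per group, all 6 libraries shared the spread, and the prior variance followed log2(mean TPM × exon length + 1). P-values were adjusted by Benjamini-Hochberg over all genes tested. Symbols and GRCm38 coordinates came from GENCODE M21 (22490 of 22556 identifiers matched) and promoters from RefSeq. TPM gives no depth, which limits precision for low genes, and reads were estimated from the spacing of low values. The labels name both a ribosomal depletion and a stranded mRNA kit.

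The 9 genes and the gene lists were chosen with earlier results of these data known. Genes named from a myeloid list were the 4 with the highest mean TPM, those called both between AP and saline and between polyI:C AP and AP mice, near-identical copies of members and the 3 nearest profiles of each member. Where other myeloid genes are named, this is said beside them, and lists of other cells are given by counts, with the acinar genes called in both comparisons and their one exception named. The duct markers Krt8, Krt18 and Sox9 were named after their values were seen. Lists received no test of their own, and their counts are those without median-of-ratios scaling. Alternatives were other pseudocounts (0.1 and 1), filters, scaling and priors, the replicate number as a block, fits of 4 libraries, unadjusted p-values and leaving out each library. No common shift of same-numbered libraries was seen, with correlations of their deviations from the group means of 0.008, -0.004 and 0.035. These values cannot show whether same-numbered mice were handled together.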

Additional observations from a re-analysis of the deposited data

How the results depend on the processing

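Among the fold changes of the 9 genes in the 3 comparisons, 242 of the alternatives other than leaving out a library kept the side of the threshold, 13 gained a call and 9 lost one. A change of sign between values that both missed the threshold was counted as kept, as for Adgre1 with polyI:C against saline mice. Leaving out a library kept 135, gained 6 and lost 21, and no called value changed sign. With the replicate block the members called were unchanged in number in each comparison (6 raised in AP mice, 2 lowered with polyI:C against AP mice, 4 raised and 2 lowered against saline mice), and genes called were 2987 raised and 659 lowered, 62 and 62, and 2799 and 488 in the 3 comparisons. Whether replicate numbers pair the libraries is not given by the labels.

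Of the 9 genes, 2 fell with polyI:C against AP mice, which became 0 with a constant prior, 4 with only the 2 groups compared, 4 at an unadjusted p and 0 to 3 without a library. Against saline mice, 2 fell, which became 1 with a pseudocount of 1, 1 with a constant prior and 0 to 2 without a library. Leaving out a library gave 4 to 7 genes raised in AP mice and 3 to 5 raised with polyI:C against saline mice. Over all genes, 3053 rose and 677 fell in AP mice, against 1565 and 1225 after median-of-ratios scaling, so the share of higher calls depends on the scaling, and leaving out a library gave 1983 to 3161 and 475 to 638. With polyI:C against saline mice, 2838 rose and 500 fell, against 1326 and 985 after median-of-ratios scaling, and 2208 to 2982 and 371 to 473 without a library. With polyI:C against AP mice, 74 rose and 68 fell. The number that rose was 44 with no filter, 14 with a prior following the mean log2 value, 22 with a constant prior, 327 at an unadjusted p and 0 to 63 without a library. The number that fell was 14 with a prior following the mean log2 value, 19 with a constant prior, 142 with only the 2 groups compared, 401 at an unadjusted p and 0 to 78 without a library. Each fit without a library left 1 library in that group and fewer libraries to estimate the shared spread in every comparison. A call lost in such a fit therefore does not by itself show dependence on the mouse left out. The cause of these changes was not tested. Among ratios between members, that of Ly6c2 to Csf1r in polyI:C AP mice moved from -1.42 to -1.52 with a pseudocount of 0.1 and to -1.31 with a pseudocount of 1, and the other 28 moved by less than the spread between libraries. Ly6c2 and Il34 rest on few reads in saline mice.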
